A study of Arabidopsis thaliana with 12 samples.

Results

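The NPR proteins and the TGA factors are the receptors and the DNA-binding partners of salicylic acid (SA) signalling in Arabidopsis. The 10 genes described here were taken by locus: the receptor genes NPR1, NPR3 and NPR4, the NPR1 inhibitor gene NIMIN1, and the transcription factor genes TGA1 to TGA6. Of these, 9 were among the 14897 genes of the deposited table, and NIMIN1 (AT1G02450) was not analysed here. RNA was sequenced from whole Arabidopsis thaliana seedlings, 14 days old and grown in liquid culture under continuous light, after 48 h in L-glutamate (L-Glu) at 20 mM or in urea at the same concentration. The 4 groups were L-Glu-treated sid2, L-Glu-treated Col-0, urea-treated sid2 and urea-treated Col-0, each with 3 libraries. Col-0 is the wild type and sid2 carries a mutation in SID2 (ICS1), the isochorismate synthase gene of SA synthesis, of which the labels name no allele. There was no untreated group, so each effect of L-Glu is relative to urea.

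NPR1 is an SA receptor and a co-activator that lacks a DNA-binding domain of its own and acts through TGA factors, which are bZIP proteins that bind the motif TGACG. NPR3 and NPR4 also bind SA and act as co-repressors of SA-responsive genes. NIMIN proteins bind NPR1 and restrain it. The TGA factors fall into the clade of TGA1 and TGA4, the clade of TGA2, TGA5 and TGA6, and the clade that holds TGA3. All are known from studies of pathogen defence in leaves.

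The deposited values were a normalized signal, the abundance of reads per gene on a scale set by the authors. Its library medians were alike (74.1 to 77.2) and its library sums were higher with L-Glu (3900394 to 4419987) than with urea (2564533 to 3051489). The number of reads behind a library is unknown. Col-0 urea library 1 and Col-0 L-Glu library 2 stood apart from their groups on principal components, at 56.6 against -9.20 and -11.9 on the third component and at 52.0 against 21.4 and 24.0 on the second. The transcript of SID2 itself lay at 5421 to 7434 in L-Glu-treated sid2, 7461 to 10896 in L-Glu-treated Col-0, 29.8 to 65.4 in urea-treated sid2 and 89.6 to 100.1 in urea-treated Col-0. Its sid2 values were below its Col-0 values in every library of either treatment, but the log2 difference of sid2 minus Col-0 was not called with L-Glu (-0.47, limma adjusted p = 0.197) or with urea (-1.06, adjusted p = 0.0745). The urea difference was called with the replicate number as a block (adjusted p = 0.0275), where same-numbered libraries were taken as paired. As the lesion is not given, the transcript level is no check of the genotype label, which rests on the sample titles.

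The 3 receptor genes were all higher with L-Glu than with urea in both genotypes, and NPR1 had the largest increase. In sid2 NPR1 (AT1G64280) had a signal of 1955.6, 1921.2 and 1975.5 with L-Glu, against 122.6, 126.8 and 128.6 with urea. In Col-0 it had 1929.7, 1594.8 and 1824.6 with L-Glu, against 175.8, 126.9 and 138.3 with urea. Every L-Glu library was far above every urea library, whereas the libraries of the genotypes overlapped within each treatment. The means of 1950.8 ± 27.5 and 126 ± 3.07 in sid2 (SD, n = 3 each) had a ratio of 15.5, and those of 1783.0 ± 171 and 147 ± 25.6 in Col-0 had a ratio of 12.1. On the log2(scaled signal + 1) scale NPR1 rose by 3.92 in sid2 (SE 0.170, limma adjusted p = 2.99e-13) and by 3.58 in Col-0 (SE 0.170, adjusted p = 9.84e-13). In bulk seedlings, fewer cells of a type and less RNA per cell cannot be told apart, and the same holds for increases.

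NPR3 (AT5G45110) came next among the receptor genes and was the one whose 4 groups were separate from each other. It had 763.4, 458.1 and 678.7 in L-Glu-treated sid2 and 935.5, 1056.4 and 898.0 in L-Glu-treated Col-0. With urea it had 58.2, 59.3 and 60.7 in sid2 and 150.4, 98.8 and 95.9 in Col-0. No library of one group overlapped another group, and the order from low to high was urea-treated sid2, urea-treated Col-0, L-Glu-treated sid2 and L-Glu-treated Col-0. The ratio of the L-Glu mean to the urea mean was 10.7 in sid2 (log2 fold change 3.31, SE 0.210, limma adjusted p = 6.79e-11) and 8.37 in Col-0 (3.05, SE 0.210, adjusted p = 2.25e-10).

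NPR4 (AT4G19660) had the smallest fold changes of the receptor genes. It had 157, 123 and 184 in L-Glu-treated sid2 and 177, 165 and 189 in L-Glu-treated Col-0, against 56.2, 31.1 and 62.6 in urea-treated sid2 and 94.8, 81.2 and 86.4 in urea-treated Col-0. The L-Glu libraries of either genotype lay above all urea libraries, the genotypes overlapped with L-Glu, and the sid2 libraries were the lower ones with urea. The mean rose 3.10-fold in sid2 (log2 fold change 1.60, SE 0.235, limma adjusted p = 7.88e-06) and 2.02-fold in Col-0 (0.99, SE 0.235, adjusted p = 0.00129). The Col-0 call was lost with all libraries scaled to one total (log2 fold change 0.35, adjusted p = 0.217).

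**Figure D1:**
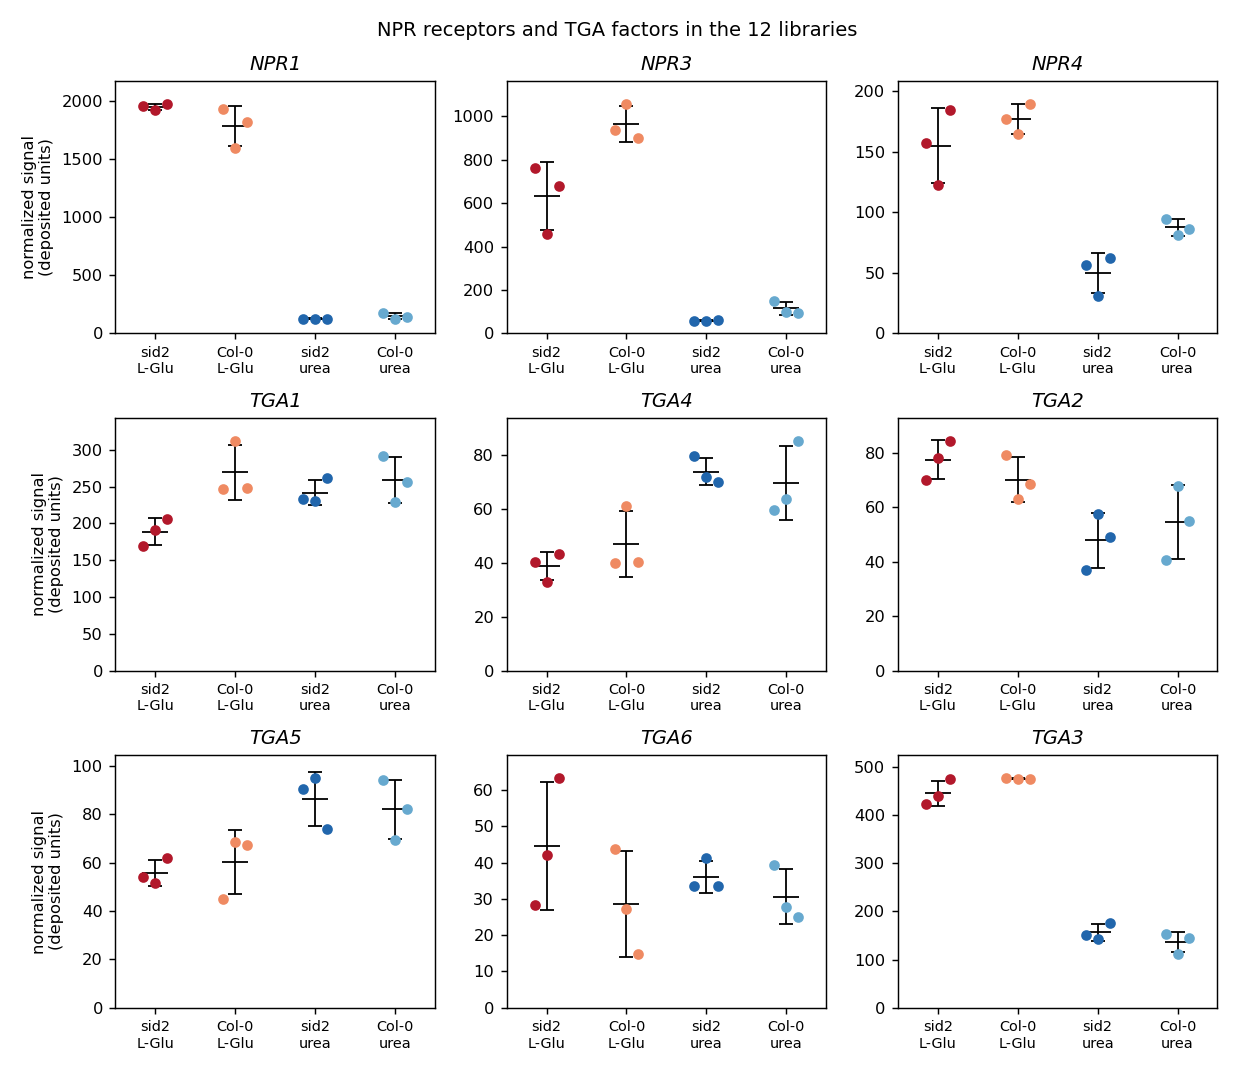
Normalized signal of the 9 measured genes (vertical axis, deposited units, from 0) in the 12 libraries, grouped as sid2 L-Glu, Col-0 L-Glu, sid2 urea and Col-0 urea; points are libraries, bars the mean ± SD of 3. NPR1 lay between 1594.8 and 1975.5 with L-Glu and between 122.6 and 175.8 with urea, while TGA1 lay between 169.8 and 311.9 over all 4 groups.

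The windows of 250 bases before the annotated starts of the 4 genes that rose in both genotypes, the receptor genes and TGA3, are shown because these members moved together. Capitals mark TGACG, the TGA motif, and TTGAC, the core of the WRKY motif, read on either strand (CGTCA and GTCAA on the printed strand), and the strand printed is that of the gene. The sequences come from the RefSeq genome TAIR10.1, whose annotation places NPR1 at chr1:23852748-23855658 on the minus strand, NPR3 at chr5:18228768-18231588 on the plus strand, NPR4 at chr4:10696266-10698811 on the minus strand and TGA3 at chr1:7789133-7792139 on the plus strand. The windows are chr1:23855659-23855908 for NPR1, chr5:18228518-18228767 for NPR3, chr4:10698812-10699061 for NPR4 and chr1:7788883-7789132 for TGA3, and none overlaps a neighbouring gene.
NPR1: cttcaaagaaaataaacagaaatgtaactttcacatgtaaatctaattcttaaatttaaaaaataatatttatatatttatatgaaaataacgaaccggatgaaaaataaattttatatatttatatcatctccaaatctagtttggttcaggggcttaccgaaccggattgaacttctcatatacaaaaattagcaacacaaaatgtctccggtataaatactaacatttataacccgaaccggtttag
NPR3: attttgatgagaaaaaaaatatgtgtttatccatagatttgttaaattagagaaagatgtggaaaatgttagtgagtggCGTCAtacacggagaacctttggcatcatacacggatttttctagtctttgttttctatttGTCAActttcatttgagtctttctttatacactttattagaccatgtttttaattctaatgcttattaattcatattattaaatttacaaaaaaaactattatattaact
NPR4: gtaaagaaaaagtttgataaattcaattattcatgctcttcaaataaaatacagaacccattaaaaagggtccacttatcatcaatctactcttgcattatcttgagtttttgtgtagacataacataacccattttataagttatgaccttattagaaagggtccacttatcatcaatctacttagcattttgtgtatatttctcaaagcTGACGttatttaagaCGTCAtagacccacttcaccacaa
TGA3: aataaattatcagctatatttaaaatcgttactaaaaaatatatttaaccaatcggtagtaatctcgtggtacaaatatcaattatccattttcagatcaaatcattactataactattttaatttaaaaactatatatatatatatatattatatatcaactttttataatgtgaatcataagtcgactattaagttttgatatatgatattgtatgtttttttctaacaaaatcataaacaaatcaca

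Neither motif was common to all 4 windows, and TGACG was found in those of NPR3 and NPR4. The windows end at the annotated gene start, so the transcribed part of each gene was not searched. The NPR4 window held 2 TGACG motifs on opposite strands, 39 and 24 bases before the start with 10 bases between them. The NPR3 window held 1 TGACG and 1 TTGAC, 171 and 110 bases before the start, and the letters of neither motif were found in those of NPR1 and TGA3. Of all 10 genes, 4 had TGACG in such a window (NPR3, NPR4, TGA4 and TGA6), and 4 had TTGAC (NPR3, TGA2, TGA5 and TGA6), counting 1 TTGACG of TGA6 under both. Among windows of the same length before all 27443 nuclear protein-coding genes, 18.6% held TGACG and 44.9% held TTGAC, and among the 14650 of them in the table the shares were 19.8% and 45.7%. The windows of TGA2, TGA4 and TGA5 run into a neighbouring gene. The matches describe letters only and were not tied to the measured effects.

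Among the 6 TGA genes only TGA3 (AT1G22070) was called in both genotypes on the deposited scale, and with L-Glu it had the highest signal per kb of exon of them. TGA3 encodes a bZIP factor that binds NPR1 and is needed for full SA-dependent defence. It had 423, 440 and 474 in L-Glu-treated sid2, against 150.1, 142.0 and 177.0 in urea-treated sid2. In Col-0 it had 476.8, 474.6 and 475.8 with L-Glu, against 153.8, 112.2 and 143.9 with urea. The treatments did not overlap in either genotype, and with L-Glu the sid2 libraries lay just under those of Col-0. TGA3 rose 2.85-fold in sid2 (log2 fold change 1.50, limma adjusted p = 3.53e-07) and 3.48-fold in Col-0 (1.79, SE 0.172, adjusted p = 3.30e-08).

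The clade of TGA1 and TGA4, whose redox-sensitive cysteines bear on their binding of NPR1, had no call upwards. TGA1 (AT5G65210, chr5:26057533-26061157, plus strand) had 169.8, 190.7 and 206.0 in L-Glu-treated sid2 and 233.2, 230.4 and 261.9 in urea-treated sid2. In Col-0 it had 247.2, 311.9 and 248.8 with L-Glu and 291.6, 228.7 and 256.2 with urea. The treatments were separate in sid2, with L-Glu lower, and overlapped in Col-0, but neither log2 difference was called (-0.35 in sid2, limma adjusted p = 0.0833; 0.05 in Col-0, adjusted p = 0.801). Without the pair of libraries that stood apart, whose omission tightens the pooled spread, the sid2 value was called (adjusted p = 0.0454). It was not called in any of the 12 omissions of 1 library (limma adjusted p 0.0607 to 0.24).

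TGA4 (AT5G10030, chr5:3137289-3144269, minus strand) had 40.3, 32.9 and 43.3 in L-Glu-treated sid2, against 79.4, 71.8 and 70.0 in urea-treated sid2. In Col-0 it had 39.7, 61.1 and 40.3 with L-Glu and 59.6, 63.6 and 85.1 with urea. The groups were apart in sid2 and overlapped in Col-0 through L-Glu library 2. In sid2 TGA4 fell by 0.87 on the log2 scale (limma adjusted p = 0.00304), to 0.526 of the urea mean. In Col-0 it was at -0.54 (SE 0.234, adjusted p = 0.0538). It was called there without L-Glu library 2 (-0.73, adjusted p = 0.0165), without urea library 1 (adjusted p = 0.04) and without both (-0.83, adjusted p = 0.0114). Over the 12 omissions of 1 library its Col-0 value ranged from -0.73 to -0.39, with limma adjusted p up to 0.211.

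The clade of TGA2, TGA5 and TGA6, whose members act redundantly in SA-dependent gene activation and its repression in the uninduced state, was called on the deposited scale in sid2 only, for TGA2 and TGA5. These genes are tandem neighbours on the plus strand of chromosome 5, at chr5:2150840-2154586 and chr5:2154746-2157719 with 159 bases between them, yet they differed in direction in sid2. TGA2 (AT5G06950) had 69.9, 78.2 and 84.3 in L-Glu-treated sid2 against 37.1, 57.4 and 49.1 with urea, and 79.0, 62.9 and 68.4 in L-Glu-treated Col-0 against 40.8, 68.0 and 54.9 with urea. The treatments were separate in sid2 and overlapped in Col-0. TGA2 rose by 0.67 on the log2 scale in sid2 (limma adjusted p = 0.0175, 1.62-fold) and was at 0.36 in Col-0 (adjusted p = 0.189). The sid2 call was lost without sid2 urea library 1 (adjusted p = 0.0923) or sid2 L-Glu library 3 (adjusted p = 0.0604), and with all libraries scaled to one total, with TGA2 at 0.17.

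TGA5 (AT5G06960) had 54.1, 51.4 and 61.8 in L-Glu-treated sid2 against 90.4, 94.9 and 73.8 with urea, and 45.1, 68.5 and 67.2 in L-Glu-treated Col-0 against 94.2, 69.5 and 82.2 with urea. L-Glu libraries lay below urea libraries in both genotypes, in Col-0 by a gap of about 1 unit. The sid2 difference was called (fell by 0.60 on the log2 scale, limma adjusted p = 0.0245) and the Col-0 difference was not (-0.43, adjusted p = 0.0986). The sid2 call was lost in 4 of the 12 omissions of 1 library, without urea library 1 (adjusted p = 0.0681) or 2 (0.083) and without L-Glu library 1 (0.0622) or 2 (0.0763). TGA6 (AT3G12250, chr3:3905423-3908983, plus strand) was at 28.4, 42.2 and 63.2 in L-Glu-treated sid2, 43.8, 27.1 and 14.9 in L-Glu-treated Col-0, 33.6, 41.2 and 33.4 in urea-treated sid2 and 39.2, 27.7 and 25.1 in urea-treated Col-0. All its groups overlapped, and its log2 differences of 0.22 in sid2 and -0.17 in Col-0 were not called (limma adjusted p = 0.575 and 0.675).

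Counted together, 5 of the 9 measured genes rose and 2 fell in sid2, where 64.4% of all genes were called (32% higher and 32.4% lower). In Col-0 4 rose and 0 fell, where 60.1% of all genes were called (29.7% higher and 30.3% lower), and an unadjusted p under 0.05 was reached by 5 of the 9 (64% of all genes). These counts, 7 of 9 in sid2 and 4 of 9 in Col-0, lay on either side of the share of the whole table, and nothing particular to the family is read from them. Genes in the table had a mean signal of at least 6.93 over the libraries, so a gene may be in it through its higher group, and these counts describe the measured genes alone. The median log2 fold change of the 9 genes was 0.67 in sid2 and 0.36 in Col-0, against -0.02 and -0.05 over all genes. The L-Glu and urea libraries did not overlap for 5 genes that were higher and 3 that were lower in sid2 (35.6% and 36.4% of all genes), and for 4 that were higher and 1 that was lower in Col-0 (30.7% and 31.1%).

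**Figure D2:**
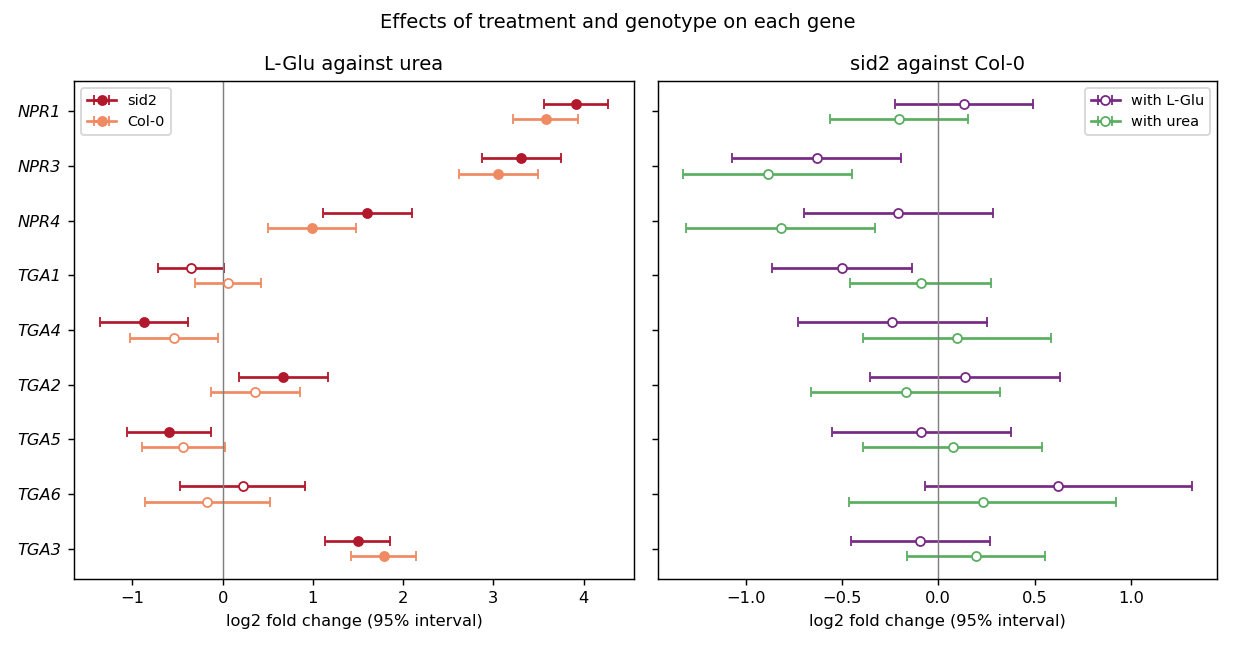
Log2 fold changes (horizontal axes) with 95% intervals of the fit for L-Glu against urea in sid2 and Col-0 (left) and for sid2 against Col-0 with L-Glu and with urea (right); filled points passed the threshold of 0.05 on the adjusted p. NPR1, NPR3, NPR4 and TGA3 lie right of 0 and are filled in both genotypes on the left. TGA2 also lies right of 0 there, filled in sid2 only, and on the right all points are open.

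Some of these calls depended on how the libraries were scaled. With all libraries scaled to one total, the median of all genes moved to -0.52 in sid2 and -0.66 in Col-0, and the share of called genes that were higher fell to 31.2% and 26%, against 49.6% and 49.5% on the deposited scale. NPR1, NPR3 and TGA3 stayed higher and called in both genotypes, at 3.39, 2.79 and 0.97 in sid2 and 2.93, 2.41 and 1.14 in Col-0. Then 3 genes were called lower in sid2 (TGA1 at -0.88, TGA4 at -1.37 and TGA5 at -1.10) and 4 in Col-0 (TGA1 at -0.60, TGA4 at -1.16, TGA5 at -1.06 and TGA6 at -0.76). Quantile normalization moved the medians to -0.10 and -0.14 and added a lower call for TGA1 in sid2 (-0.53, limma adjusted p = 0.0145). Relative to the median of all genes TGA4 in Col-0 was at -0.49 on the deposited scale and -0.50 with one total, and NPR4 at 1.04 and 1.01.

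**Figure D3:**
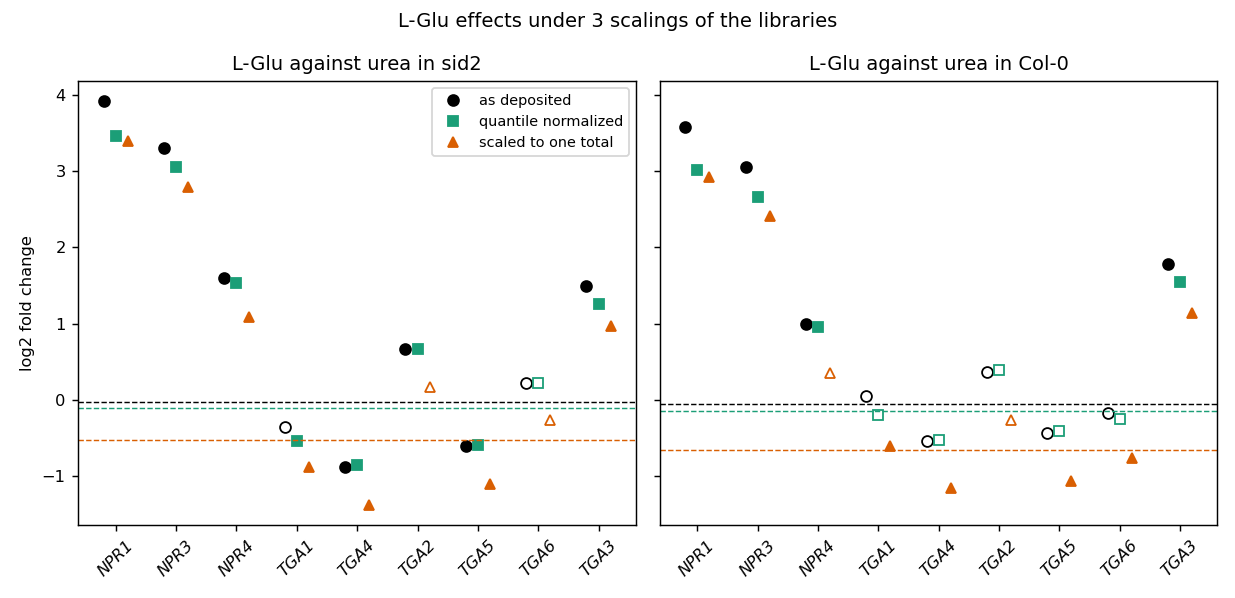
Log2 fold changes of L-Glu against urea (vertical axes) for the 9 genes in sid2 (left) and Col-0 (right) with the signal as deposited, quantile normalized and scaled to one total; filled symbols were called, and dashed lines are the median of all genes under each scaling. The one-total values of the 9 genes lie lowest, with the median at -0.52 in sid2 and -0.66 in Col-0. NPR1, NPR3 and TGA3 stay above 0 and filled in both genotypes. NPR4 also stays above 0, open in Col-0 (0.35), as does TGA2 in sid2 (0.17, open).

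Markers of organs moved with the treatment. The summed signal of 4 shoot markers (RBCS1A, LHCB1.3, LHCB2.1 and RCA, genes of photosynthesis) was 2130.3 to 3194.6 in L-Glu-treated sid2 against 75729.0 to 105676.3 with urea, and 705 to 1352.2 in L-Glu-treated Col-0 against 62054.6 to 75005.7 with urea. All 4 fell in both genotypes. The 6 measured of 8 root markers summed to 3481.8 to 4243.4 in L-Glu-treated sid2 against 3006.9 to 3611.3 with urea, and to 4541.5 to 9338.1 in L-Glu-treated Col-0 against 2658.3 to 4183.2 with urea. One gene carries this sum, the beta-glucosidase gene PYK10, which made up 92.2% to 95.6% of it in L-Glu-treated sid2, 94.3% to 97.5% in L-Glu-treated Col-0, 82.2% to 87.9% in urea-treated sid2 and 87.7% to 93.8% in urea-treated Col-0. PYK10 rose in Col-0 (1.07 on the log2 scale, limma adjusted p = 0.00378) and was not called in sid2 (0.38). The other 5 summed to 185 to 271 in L-Glu-treated sid2 against 437 to 534 with urea, and to 234 to 274 in L-Glu-treated Col-0 against 258 to 330 with urea. In sid2 the aquaporin gene TIP2;3 fell by 1.48, and SCR and SHR, regulators of the root ground tissue, fell by 0.99 each. MYB36, a regulator of the endodermis, rose in both genotypes (0.59 in sid2, limma adjusted p = 0.0417, and 0.58 in Col-0, adjusted p = 0.0495), and CASP1 was not called. The root markers thus had 1 call upwards and 3 downwards in sid2 and 2 upwards and 0 downwards in Col-0. Both organs' markers were present in all libraries, as whole seedlings would have, and 0 of 3 seed markers were in the table. The part of organ composition in the results above was not tested.

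The shares of the genes within the receptor set and within TGA1 to TGA6 are given next as a description. Signal per kb of exon was used to compare genes, since longer transcripts give more reads. Whether the deposited signal already allows for length is not given. The division is thus an assumption, on which the orders and shares below rest. Undivided, TGA1 and TGA3 did not overlap in urea-treated sid2 (230.4 to 261.9 against 142.0 to 177.0). With urea TGA1 had the highest level of the 9 genes, at 81.8 per kb in sid2 and 87.6 in Col-0, followed by TGA3 at 78.5 and 68.6, and the libraries of TGA1 and TGA3 overlapped in sid2 and not in Col-0. With L-Glu NPR1 led, at 746 per kb in sid2 and 682 in Col-0, followed by NPR3 at 238 and 362 and TGA3 at 224 and 239, and the libraries of NPR3 and TGA3 overlapped in sid2 and not in Col-0. NPR1 made up 71.3% ± 4.66 of the summed signal per kb of NPR1, NPR3 and NPR4 in L-Glu-treated sid2, 60.9% ± 3.67 in L-Glu-treated Col-0, 52.8% ± 4.33 in urea-treated sid2 and 41.3% ± 0.87 in urea-treated Col-0 (SD, n = 3 each). The NPR4 share was 6.18% ± 0.882 in L-Glu-treated sid2 and 6.67% ± 0.417 in L-Glu-treated Col-0, against 22.7% ± 6.16 in urea-treated sid2 and 27.3% ± 2.55 in urea-treated Col-0. With L-Glu NPR3 was next, at 22.5% in sid2 and 32.5% in Col-0. With AT4G26120 in the sum, which lay at 75.1 and 72 per kb with L-Glu against 4.37 and 9.07 with urea in sid2 and Col-0, the NPR1 share was 66.6% and 57.2% with L-Glu against 50.6% and 38.6% with urea.

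Within TGA1 to TGA6 TGA3 held 58.0% ± 1.5 of the signal per kb in L-Glu-treated sid2 and 56.4% ± 2.39 in L-Glu-treated Col-0, against 28.7% ± 2.75 in urea-treated sid2 and 25.7% ± 1.79 in urea-treated Col-0. TGA1 held 16.5% and 21.4% with L-Glu in sid2 and Col-0, against 29.9% and 32.9% with urea. These shares leave out TGA7, TGA9 and TGA10. Per kb TGA7 with urea lay above TGA1, at 108 in sid2 and 129 in Col-0, and at 22.3 and 54.7 with L-Glu. Undivided, its urea means lay below those of TGA1, at 207 against 242 in sid2 and 246 against 259 in Col-0. Over all 9 measured TGA genes TGA3 held 49.9% and 43.5% with L-Glu in sid2 and Col-0, against 19.3% and 15.9% with urea, and TGA1 held 14.2% and 16.5% against 20.1% and 20.3%. The TGA7 share was 4.94% and 9.86% with L-Glu, against 26.3% and 30% with urea. The ratio of 2 genes within a library does not change when the whole library is multiplied by a constant. TGA3 over TGA1 per kb was 3.42 to 3.70 in L-Glu-treated sid2 and 2.26 to 2.86 in L-Glu-treated Col-0, against 0.915 to 1.00 in urea-treated sid2 and 0.728 to 0.833 in urea-treated Col-0. TGA2 over TGA5 per kb averaged 1.00 ± 0.0841 in L-Glu-treated sid2 and 0.886 ± 0.328 in L-Glu-treated Col-0, against 0.404 ± 0.096 and 0.500 ± 0.197 with urea. The 4 groups did not overlap in TGA3 over TGA1. In TGA2 over TGA5 the treatments overlapped in Col-0 and not in sid2, and the genotypes overlapped within each treatment. These shares and ratios describe the libraries and were not tested.

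**Figure D4:**
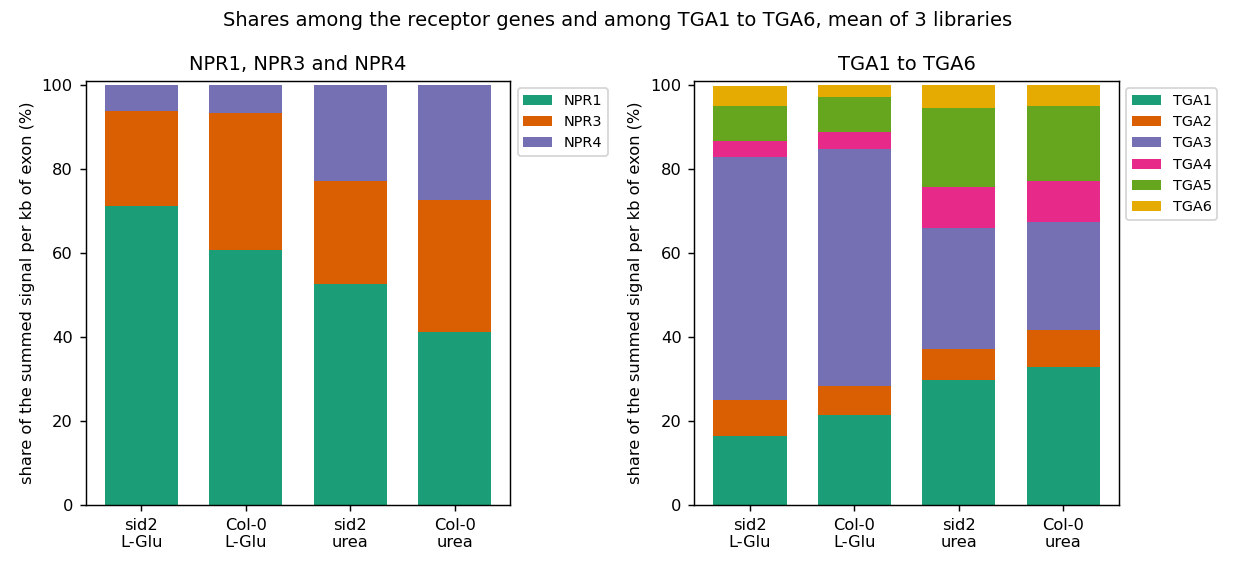
Mean share (vertical axes, percent of the summed signal per kb of exon, 3 libraries a group) of each gene among NPR1, NPR3 and NPR4 (left) and among TGA1 to TGA6 (right) for sid2 L-Glu, Col-0 L-Glu, sid2 urea and Col-0 urea. NPR1 takes 71.3% and 60.9% with L-Glu against 52.8% and 41.3% with urea, and TGA3 takes 58.0% and 56.4% with L-Glu against 28.7% and 25.7% with urea.

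The comparison of sid2 with Col-0 within a treatment asked whether the receptor and TGA transcripts depended on the SA synthesis mutation, and used the same libraries as the comparisons of the treatments. With L-Glu 0 of the 9 genes were called by limma, where 13.3% of all genes were called, and 2 reached an unadjusted p under 0.05 (28.8% of all genes). These were NPR3, with means of 633 ± 158 in sid2 and 963 ± 82.8 in Col-0 (SD, n = 3 each, ratio 0.658), and TGA1, with 189 ± 18.2 and 269 ± 36.9 (ratio 0.701). NPR3 was at -0.63 on the log2 scale (SE 0.210, 95% interval -1.07 to -0.19, limma adjusted p = 0.0533) and TGA1 at -0.50 (95% interval -0.86 to -0.14, adjusted p = 0.0637). NPR3, TGA1 and TGA3 were the 3 genes whose sid2 libraries all lay below the Col-0 libraries, as 17.5% of all genes did. The NPR3 difference was called without Col-0 urea library 1 (adjusted p = 0.0205), without sid2 L-Glu library 1 (0.0457), with only the compared groups in the fit (0.0356) and with a pseudocount of 5 (0.0388). Over the 12 omissions of 1 library it ranged from -0.78 to -0.42, with limma adjusted p up to 0.278. TGA1 was called without Col-0 urea library 1 (adjusted p = 0.0383), while other omissions gave limma adjusted p up to 0.226. NPR1, at 1950.8 ± 27.5 in sid2 and 1783.0 ± 171 in Col-0, differed by 0.13 with a 95% interval of -0.22 to 0.49.

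With urea 0 of the 9 genes were called by limma, where 0.248% of all genes were called, and again 2 reached an unadjusted p under 0.05 (6.33% of all genes). NPR3 averaged 59.4 ± 1.22 in sid2 and 115 ± 30.7 in Col-0 (SD, n = 3 each, ratio 0.516), a log2 difference of -0.88 (SE 0.210, 95% interval -1.32 to -0.45, limma adjusted p = 0.111). NPR4 averaged 50.0 ± 16.7 in sid2 and 87.4 ± 6.83 in Col-0 (ratio 0.572), a log2 difference of -0.82 (SE 0.235, 95% interval -1.31 to -0.33, limma adjusted p = 0.291). Both receptor genes had all sid2 libraries below all Col-0 libraries, as 5.37% of all genes did. The highest Col-0 value of NPR3 was that of urea library 1, and without the pair of libraries that stood apart the NPR3 difference was -0.68 (adjusted p = 0.276). NPR3 passed the threshold with all libraries scaled to one total (-1.005, adjusted p = 0.0473). NPR1 was at -0.20 (95% interval -0.56 to 0.15) and TGA3 at 0.20 (-0.16 to 0.56).

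The NPR1 over NPR3 ratio within a library, which no scaling by a constant changes, was higher in sid2 under both treatments. Per kb it was 2.61, 4.27 and 2.96 in L-Glu-treated sid2 against 2.1, 1.54 and 2.07 in L-Glu-treated Col-0. With urea it was 2.14, 2.18 and 2.16 in sid2 against 1.19, 1.31 and 1.47 in Col-0. The genotypes did not overlap in either treatment, and no test of the ratio was made. NPR1 over NPR4 per kb overlapped between the genotypes with L-Glu, at 9.74 to 14.2 in sid2 and 8.76 to 9.88 in Col-0. With urea it did not, at 1.87 to 3.71 in sid2 and 1.42 to 1.69 in Col-0. The share of all gene pairs whose ratios separate the genotypes was not determined.

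The interaction asked whether the L-Glu effect itself differed between the genotypes. It was called for 0 of the 9 genes by limma, 0 of them also had an unadjusted p under 0.05, and 1.95% of all genes were called (16.9% had an unadjusted p under 0.05). The largest estimate was that of NPR4, at 0.61 (95% interval -0.08 to 1.31, limma adjusted p = 0.361), followed by TGA1 at -0.41 (-0.92 to 0.11). NPR1 was at 0.34 (SE 0.241, 95% interval -0.17 to 0.84, adjusted p = 0.502), NPR3 at 0.25 (-0.37 to 0.88) and TGA3 at -0.29 (-0.80 to 0.22). For NPR1 the interval thus bounds a difference in response at less than 1 log2 unit in either direction, and it does not show that the responses were equal. TGA6 had the widest interval of the 9 (-0.59 to 1.37).

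Around these genes, 3 lists were counted in full. Among other family members 5 of 9 were measured. AT4G26120, whose closest match in the annotation is NPR1, averaged 175 ± 24.3 in L-Glu-treated sid2 against 10.2 ± 6.35 with urea, and 168 ± 30.02 in L-Glu-treated Col-0 against 21.1 ± 2.57 with urea (SD, n = 3 each). It rose by 3.82 in sid2 and 2.79 in Col-0 on the log2 scale. TGA7, which shares the clade of TGA3, fell by 2.19 in sid2 and by 1.24 in Col-0, so the clade moved in opposite directions. TGA9, a factor of anther development, rose by 0.81 and 1.06. TGA10, its close relative, rose in Col-0 (0.90) and was at 0.38 in sid2 (limma adjusted p = 0.193). NIMIN3, which encodes a further NPR1-binding protein, was at -0.46 in sid2 and 0.53 in Col-0 and was not called. In all 2 rose and 1 fell in sid2, and 3 rose and 1 fell in Col-0. These 3 and 4 of 5 called genes stand beside 64.4% of all genes called in sid2 and 60.1% in Col-0, and nothing particular to the relatives is read from them. The increases of TGA9 and TGA10 were not called with one total. BOP1, BOP2, NIMIN2 and PAN were not analysed here.

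Of 12 partners and regulators of the NPR1 protein 11 were measured, and 4 rose and 2 fell in each genotype. The 6 of 11 called lay below the shares of the whole table (64.4% in sid2 and 60.1% in Col-0), so the count shows nothing particular to the partners. The histone acetyltransferase genes HAC1 and HAC5 rose by 0.66 and 1.43 in sid2 and by 0.97 and 1.09 in Col-0, and the Mediator gene MED16 by 0.83 and 0.73. TRXH5, the thioredoxin that reduces NPR1 oligomers, rose by 0.78 in sid2 and 1.04 in Col-0. The related TRXH3 fell by 1.12 in sid2 and by 0.77 in Col-0, and GSNOR1, the S-nitrosoglutathione reductase gene, by 1.05 and 0.81. CUL3A and CUL3B, the cullins of the ligase that turns NPR proteins over, were at -0.08 and 0.29 in sid2 and 0.07 and 0.36 in Col-0 and were not called. The increases rested on the scaling: with one total only HAC5 of these genes stayed called higher, and only in sid2, and quantile normalization ended the calls of TRXH5 and HAC1 in both genotypes. TRXH3 in Col-0 lost its call in 3 of 12 omissions of 1 library, MED16 in Col-0 in 2 and HAC1 in sid2 in 1. SNI1 was not analysed here.

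Among the 16 genes listed as SA response genes 9 were measured. Of these 8 rose in sid2 and 9 in Col-0, where 32% and 29.7% of all genes were called higher. The list was chosen with earlier results of these data known, and a gene may be in the table through its higher group. Nothing particular to the list is thus read from this count or from the median below. Their dependence on NPR1 or the TGA factors was not tested. The transcription factor gene WRKY51 rose by 7.13 in sid2 and 7.37 in Col-0, and SARD1 and CBP60g, activators of SID2, rose by 7.79 and 6.25 in sid2 and by 6.44 and 5.61 in Col-0. WRKY70, a regulator of SA responses, rose by 4.83 and 3.47, and the glutathione transferase gene GSTF8 by 1.69 and 2.31. WRKY54 rose by 3.77 in Col-0 and was at 0.46 in sid2. The median of the 9 genes was 4.83 in sid2 and 3.77 in Col-0, against -0.02 and -0.05 over all genes. With urea 4 of the 9 were lower in sid2 than in Col-0, WRKY51 at -1.67, WRKY54 at -2.35, WRKY70 at -2.08 and SARD1 at -1.86, and 0 were higher, where 0.248% of all genes were called in either direction. The WRKY51 call there was lost in 3 of 12 omissions of 1 library, and with only the compared groups in the fit neither WRKY51 (limma adjusted p = 0.193) nor SARD1 (0.0798) was called. PR1, PR2, PR5, GRXC9, WRKY38, WRKY62 and TBF1 were not analysed here.

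**Figure D5:**
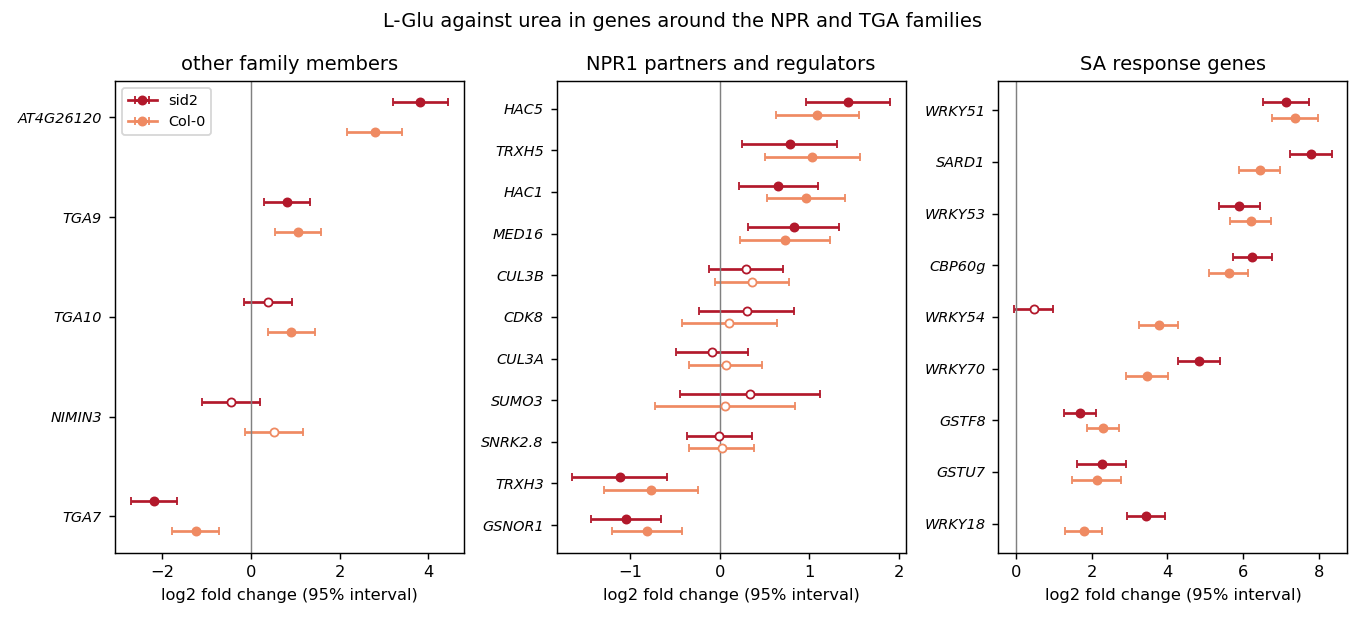
Log2 fold changes of L-Glu against urea (horizontal axes) with 95% intervals in sid2 and Col-0 for other family members (left), partners of NPR1 (middle) and SA response genes (right); filled points were called. AT4G26120 lies at 3.82 and 2.79 and TGA7 at -2.19 and -1.24, the partners lie between -1.12 and 1.43, and WRKY54 at 0.46 is the open point among the response genes.

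With L-Glu 2 of the 5 family members were lower in sid2 than in Col-0, TGA7 by a log2 difference of -1.22 and TGA10 by -0.90. TRXH5, the one partner of 11 called there, was lower at -0.96. Of the 9 response genes WRKY18 was higher in sid2 at 0.97, and WRKY51 (-1.91), WRKY53 (-0.87) and WRKY54 (-5.66) were lower. These counts stand beside 13.3% of all genes called in this comparison, in either direction. Among 12 omissions of 1 library the call was lost in 5 for WRKY53, 4 for TGA10, 3 for TRXH5 and 3 for WRKY18.

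The genes most like NPR1 in pattern were found over the 12 libraries as those with the smallest root mean square difference of gene-centred log2 values. They were the transcription factor gene WRKY6 (0.138), the UDP-galactose transporter gene AT4G23010 (0.158) and the transcription factor gene NAC062 (0.164). WRKY6 had effects of 4.10 in sid2 and 3.61 in Col-0, and NAC062 of 3.75 and 3.62, close to the 3.92 and 3.58 of NPR1. For NPR4, the gene with the largest interaction estimate, they were AT5G43910 (0.183), AT5G62770 (0.225) and CNGC3 (0.244), a cyclic nucleotide-gated channel gene. The 12 libraries share the 2 treatments, so the likeness is a description of these groups.

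Reads may have been shared between some of the genes. Of all pairs of the 10 genes, TGA2 and TGA6 had 12 stretches of 30 bases in common (0.599% of those of TGA2 and 0.688% of those of TGA6) and TGA1 and TGA4 had 6 (0.249% and 0.256%), and the other pairs had 0. Genes on the opposite strand overlap 252 of the 2614 exon bases of NPR1, 58 of the 2726 of TGA4 and 575 of the 2367 of TGA6. Whether counting used strand is not given in the sources used here. The overlapping neighbours in the table were lower with L-Glu, all called except AT1G64270 in Col-0 (limma adjusted p = 0.0549): AT1G64270 beside NPR1 was at -1.0 in sid2 and -0.62 in Col-0, AT5G10050 beside TGA4 at -0.98 and -0.77, and AT3G12260 beside TGA6 at -1.21 and -0.94. NPR1 rose while its neighbour was lower, whereas TGA4, called lower in sid2 (-0.87) and at -0.54 in Col-0, had the direction of its neighbour in both genotypes. TGA6, which has the largest overlap, was at 0.22 in sid2 and -0.17 in Col-0 and was not called. The part of shared reads in these values was not tested.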

How the data were processed

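The deposited values are normalized signal per gene and library, in one table made by the authors. The genome TAIR10 and the tools edgeR 3.22.3, HTSeq 0.6.0 and TopHat2 2.1.0 (also listed as TopHat) are given by the submitters' processing notes with no role for each, and the normalization is not given in the sources used here. The values are neither whole reads nor CPM, the depth is unknown, and no interval that needs it is given. Groups follow the sample titles, since the genotype field reads Col-0 throughout. No label says that libraries came from separate cultures, so p-values measure the spread between libraries, which may be technical.

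Values were divided by one constant (3.49), 1 was added and log2 was taken, which understates changes of low genes. A minimum mean of 1 removed 0 genes. One model of all 12 libraries was fitted in R 4.3.3 by limma 3.58.1 (group means, intensity trend, 8 residual degrees of freedom), two-sided, with Benjamini-Hochberg adjustment over all 14897 genes and a threshold of 0.05. Calls, counts and log2 fold changes are from this fit. It was also run on simulated log2 values with effects in few genes of the Col-0 L-Glu group. That run checks the code and not the scaling, the pseudocount or the calls given here. Named were all 10 genes, 3 lists around them and the 3 genes most like NPR1 and like the gene with the largest interaction. The members and lists were chosen with earlier results of these data known. Alternatives were the pseudocount, the filter, the scaling, the trend, the groups fitted, a replicate block and each library left out, and, added after seeing the data, both libraries that stood apart left out together. Same-numbered libraries deviated weakly together between the treatments in sid2 (correlations 0.116 to 0.287) and between the genotypes with urea (0.126 to 0.219). They were taken as paired there by a cut-off on these correlations alone. The main fit had no replicate block, so its p-values use no pairing in any comparison. Pairing enters only where the replicate block is named. The other comparisons reported were not taken as paired. Their correlations were 0.0265 to 0.0861 between the treatments in Col-0 and -0.11 to 0.142 between the genotypes with L-Glu. Coordinates, exon lengths and sequences come from RefSeq TAIR10.1, which held 14819 of the 14897 identifiers; the table holds no coordinates.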

Additional observations from a re-analysis of the deposited data

Results flagged for a closer look

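WRKY54 and WRKY18, response genes on the list around NPR1, were the 2 listed genes whose L-Glu effect differed between the genotypes by the interaction test, which called 1.95% of all genes. WRKY54 had 12.4, 10.7 and 8.84 in L-Glu-treated sid2, against 5.68, 6.49 and 8.13 with urea, and 657, 568 and 953 in L-Glu-treated Col-0, against 52.4, 51.3 and 42.8 with urea. Its effect was 0.46 in sid2 and 3.77 in Col-0, a difference of -3.31 on the log2 scale (limma adjusted p = 0.000184), and the sid2 values are so low that the added pseudocount shrinks their fold change. With a pseudocount of 0.1 the sid2 effect was 0.63 and was called (limma adjusted p = 0.0491). WRKY18 averaged 981 ± 160 in L-Glu-treated sid2 against 88.9 ± 24.1 with urea, and 512 ± 150 in L-Glu-treated Col-0 against 143 ± 24.8 with urea (SD, n = 3 each). Its difference was 1.64 (limma adjusted p = 0.0245), and the call was lost in 5 of 12 omissions of 1 library (adjusted p up to 0.0874). The cause of neither difference was tested.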

How the results depend on the processing

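Of 225 values of the 9 genes under pseudocounts, scalings and the omission of both libraries that stood apart, 206 kept direction and side of the threshold, 2 lost a call, 10 gained one and 7 reversed. With 1 library of a compared group left out the counts were 308, 6, 3 and 7 of 324. Leaving out both libraries that stood apart, both of Col-0, can change only the adjusted p of the L-Glu effects in sid2. Settings that can never move the fold change (stricter filter, no trend, compared groups only, replicate block) brought 3 calls among 171 values and ended 0. Leaving out a library of another group, which moves only the adjusted p, brought 2 among 216 and ended 0. Dropping the filter changed nothing, since it had removed 0 genes, and is not counted. With one total 7 members were called in Col-0 (4 as reported), 1 in sid2 against Col-0 with urea, 60 genes in that comparison (37 as reported), and TGA1 (-0.60) and TGA2 (-0.26) in Col-0, TGA6 in sid2 (-0.26) and TGA4 (-0.014) and TGA5 (-0.037) in the urea genotype comparison reversed. Quantile normalization put TGA1 in Col-0 at -0.20 and left 153 interaction genes (291 as reported). A pseudocount of 5 gave 453 interaction genes, 20 in the urea genotype comparison and 1 member in the L-Glu genotype comparison. Without the trend these were 143 and 12 genes, and with the compared groups only 5 genes in the urea and 1 member in the L-Glu genotype comparison. Without both libraries that stood apart 191 interaction genes were called and TGA5 was at 0.011 in the L-Glu genotype comparison.

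With 1 library left out, members called ranged from 4 to 5 in Col-0, 5 to 7 in sid2 and 0 to 2 in the L-Glu genotype comparison. Genes called ranged from 9 to 367 for the interaction, 792 to 2649 for the L-Glu genotype comparison (1983 as reported) and 13 to 37 for the urea one. Reversals lay within -0.054 to 0.14 for TGA1 and -0.50 to 0.18 for TGA6 in Col-0, -0.047 to 0.49 for TGA6 in sid2, and -0.27 to 0.011 and -0.033 to 0.18 for TGA5 in the L-Glu and urea genotype comparisons. With the replicate block 9160 genes were called in Col-0, 9775 in sid2, 426 for the interaction, 2360 and 49 for the genotype comparisons. Where same-numbered libraries were taken as paired, the block changed no member's call. Where they were not (sid2 against Col-0 with L-Glu), it called 1 member, NPR3 (limma adjusted p = 0.039). The causes were not tested. Read depth is unknown, which leaves the precision of the low genes TGA4 and TGA6 to the spread of 3 libraries.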
